A study of Mus musculus with 12 samples.

Results

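Txndc11, Tinf2, Rnf217, R3hdm1, Cwc25 and Raph1 were followed as a group of 6 mouse genes through hippocampal long-term potentiation (LTP). These 6 genes of the 41091 in the count tables were named because LTP slices held more of their RNA than control slices at 3 hr, with a small effect at 1 hr, and because their part in LTP is unclear. All 6 were present in the tables of both time points and passed the filter on low counts in every fit. The genes were chosen by the measured LTP effects at 3 hr and at 1 hr, and so also by the difference between them. Those values are therefore given as a description, with standard errors and without p-values.

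The RNA came from acute hippocampal slices of wild-type C57BL/6 male mice aged 2 to 3 months, from which the dentate gyrus had been trimmed. LTP was induced over 10 min, with 50 uM forskolin alone for 5 min and then with 30 mM KCl and 10 mM calcium added. Controls were given vehicle (0.2% DMSO) for as long. Freezing 1 hr or 3 hr later gave 4 groups of 3 libraries (control and LTP at each time), and each animal supplied an LTP and a control library. Library totals ran from 37118382 to 50815001 counts, and the fits omitted replicate 2 of the 1 hr controls, which clustered apart and was set aside in the study's methods. Only slices with a checked rise of Arc, an immediate early gene, went into libraries. Here Arc lay between 130 and 222 CPM (counts relative to library size, TMM scaled) in the 6 control libraries. In the 6 LTP libraries it lay between 507 and 590 CPM. Because the slices were selected on Arc, this separation is no independent test of the induction. In the 1 hr control library that was set aside, Arc was at 222 CPM, against 151 and 130 CPM in the other 1 hr controls. Since the RNA is of whole slices, fewer cells of a type and less RNA per cell cannot be told apart.

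Long-lasting LTP needs new transcription. Forskolin activates adenylyl cyclase, the rise in cAMP activates protein kinase A, and the transcription factor CREB then acts on genes with a cAMP response element (CRE). The genes that answer within an hour, such as Arc and Fos, are well studied, whereas genes that rise hours later are less so. The 6 genes have unrelated functions. Txndc11 encodes a thioredoxin-domain protein of the endoplasmic reticulum (ER) membrane with a role in ER-associated degradation of glycoproteins. Tinf2 encodes TIN2, the hub of the shelterin complex that caps telomeres. Rnf217 encodes a ubiquitin ligase of the RING-between-RING (RBR) family. R3hdm1 encodes a protein with an R3H domain, a fold that binds nucleic acids, and hosts a microRNA gene in an intron. Cwc25 encodes a spliceosome factor that acts at the first catalytic step. Raph1 encodes lamellipodin, which recruits Ena/VASP proteins to the actin filaments of the leading edge.

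In GRCm38, Txndc11 (ENSMUSG00000022498) lies on chromosome 16 from 11074911 to 11134650 on the minus strand. Tinf2 (ENSMUSG00000007589) lies on chromosome 14 from 55674689 to 55681820, minus strand. Rnf217 (ENSMUSG00000063760) lies on chromosome 10 from 31493193 to 31609184, minus strand. R3hdm1 (ENSMUSG00000056211) lies on chromosome 1 from 128103301 to 128237736, plus strand. Cwc25 (ENSMUSG00000018541) lies on chromosome 11 from 97745481 to 97766556, minus strand. Raph1 (ENSMUSG00000026014) lies on chromosome 1 from 60482292 to 60567104, minus strand. They are thus on 5 chromosomes. Of the exonic bases of Tinf2, 31.2% overlap Gmpr2 on the opposite strand, and of those of Txndc11, 0.849% overlap Snn. The sources used here do not say if reads were counted by strand, so the value of Tinf2 is uncertain to that extent. Gmpr2 itself held 10.2 to 15.1 CPM in the 12 libraries, below Tinf2 in each of them, and its LTP effect was a log2 fold change of -0.16 at 3 hr (SE 0.0867, edgeR adjusted p = 0.335) and -0.14 at 1 hr (SE 0.111, edgeR adjusted p = 0.92).

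Because the 6 genes rose after a cAMP-raising stimulus, the RefSeq promoters (GRCm38.p6, 250 bases before to 50 bases after the start) were searched for motifs of activity-regulated factors on both strands. A window for each gene is shown, written along the gene's own strand, with the matched letters in capitals. The letters are the full CRE (TGACGTCA) in Tinf2, the CRE core (TGACG, or CGTCA on the other strand) in Txndc11, R3hdm1 and Cwc25, the EGR motif (GCGNGGGCG) in Rnf217 and the GC box (GGGCGG, or CCGCCC on the other strand) in Raph1.
Txndc11, chr16:11134618-11134646, minus strand: ctgaagtgtggcTGACGtggagagtccgg
Tinf2, chr14:55681855-55681884, minus strand: aggggacctcgTGACGTCAcagctccctcc
Rnf217, chr10:31609782-31609810, minus strand: gcgactgtgtGCGTGGGCGcccgcgcgcg
R3hdm1, chr1:128103268-128103296, plus strand: taggctgctttcCGTCAacgcgacggaga
Cwc25, chr11:97766683-97766711, minus strand: ggccaccaaaacTGACGgagggtagaaag
Raph1, chr1:60566805-60566834, minus strand: cggccctcagccCCGCCCagtgtgccgggg

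The full CRE was in 1 of 6 genes, Tinf2, where it spans bases -56 to -49 from the start (-1 is the base before it), and it was in 1.79% of the 32851 promoters. The CRE core was in 4 of 6 genes, Txndc11 with 3 matches, Tinf2 with 5 (of which a pair lies inside its full CRE), R3hdm1 with 1 and Cwc25 with 3. It was in 20.8% of promoters. Rnf217 and Raph1 held no CRE core in this window. Rnf217 held 2 overlapping EGR motifs at -75 to -67 and -68 to -60 (5.55% of promoters), and Tinf2 held an AP-1 motif (TGANTCA, 7.81% of promoters). The GC box was in 4 of 6 genes, Txndc11, R3hdm1, Cwc25 and Raph1, and in 35.7% of promoters. The E-box CACGTG (7.15% of promoters) and the NF-kB, serum response element and MEF2 motifs (8.46%, 1.63% and 3.19%) were in 0 of 6. The 6 main promoters held 16 to 49 CpG sites, against a median of 7 and an upper quartile of 20 over all promoters, and Rnf217 (16) and Cwc25 (19) lay below that quartile. Their GC content was 54.7% to 81.7%, against a median of 52.7% and an upper quartile of 61.7%, which Txndc11 and Raph1 exceeded. The second RefSeq starts of Txndc11 and R3hdm1 held no motif of those searched. The CRE, its core, the EGR motif and the GC box each contain a CpG. Their shares in promoters of like CpG content were not computed, so no enrichment is read from these counts. A match of letters is a description of the sequence and not a bound site.

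The level of each gene in each library follows, in CPM, with replicates 1 to 3 in order. Txndc11 was at 34.7, 37.2 and 42.5 in the 1 hr controls, 57.7, 47.6 and 47.2 in the 1 hr LTP slices, 40.6, 37.7 and 37.5 in the 3 hr controls and 103, 91.4 and 110 in the 3 hr LTP slices. Every 3 hr LTP library thus held more than each of the other 9 libraries, the 1 hr LTP libraries lay just above the controls, and the controls of both times overlapped. The LTP effect was a log2 fold change of 1.42 at 3 hr (SE 0.0821, a 2.67-fold difference) and 0.41 at 1 hr (SE 0.105).

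Tinf2 was at 19.2, 22.4 and 25.7 CPM in the 1 hr controls, 41.1, 36.2 and 33.1 in the 1 hr LTP slices, 26.8, 27.7 and 20.3 in the 3 hr controls and 80.6, 88.9 and 75.8 in the 3 hr LTP slices. The 3 steps were separate: controls of either time lowest, 1 hr LTP next and 3 hr LTP highest, without overlap. The shelterin gene had the largest LTP effect of the 6 at both times, a log2 fold change of 1.74 at 3 hr (SE 0.116, 3.33-fold) and 0.73 at 1 hr (SE 0.12, 1.65-fold).

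Rnf217 was at 49.4, 45.5 and 50.1 CPM in the 1 hr controls, 65.5, 55.8 and 46.9 in the 1 hr LTP slices, 51.4, 47.7 and 51 in the 3 hr controls and 99.3, 105 and 92.1 in the 3 hr LTP slices. At 1 hr the groups overlapped, since LTP replicate 3 lay within the range of the controls. At 3 hr they were far apart. The log2 fold change of this ubiquitin ligase was 1.00 at 3 hr (SE 0.0685, 2.01-fold) and 0.19 at 1 hr (SE 0.109).

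R3hdm1 took the most counts of the 6 genes and has the largest summed exon length. It was at 239, 206 and 233 CPM in the 1 hr controls and 298, 325 and 287 in the 1 hr LTP slices. At 3 hr it was at 191, 195 and 208 in the controls and 335, 344 and 367 in the LTP slices. LTP lay above control at both times without overlap. The controls that entered the fit were higher at 1 hr than at 3 hr, but the 1 hr control that was set aside (206 CPM) lay within the 3 hr controls. The log2 fold change was 0.84 at 3 hr (SE 0.0648, 1.79-fold) and 0.38 at 1 hr (SE 0.0727, 1.3-fold).

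Cwc25 was at 36.8, 38.1 and 39.9 CPM in the 1 hr controls, 52.4, 47 and 44.8 in the 1 hr LTP slices, 37, 36.2 and 37.8 in the 3 hr controls and 63.3, 60.9 and 64.4 in the 3 hr LTP slices. The 6 controls lay within 36.2 to 39.9 CPM, and each LTP group lay above them, the 3 hr group highest. The splicing factor had a log2 fold change of 0.78 at 3 hr (SE 0.0618, 1.72-fold) and 0.34 at 1 hr (SE 0.0864).

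Raph1 was at 50.6, 42.2 and 44.2 CPM in the 1 hr controls, 48.2, 50.5 and 49.6 in the 1 hr LTP slices, 37.6, 34.9 and 35.5 in the 3 hr controls and 52, 60.6 and 59.1 in the 3 hr LTP slices. At 1 hr LTP and control overlapped. At 3 hr they were separate, with the controls below every 1 hr library and the LTP slices above them. The log2 fold change of the lamellipodin gene was 0.69 at 3 hr (SE 0.0772, 1.61-fold) and 0.08 at 1 hr (SE 0.0814).

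**Figure D1:**
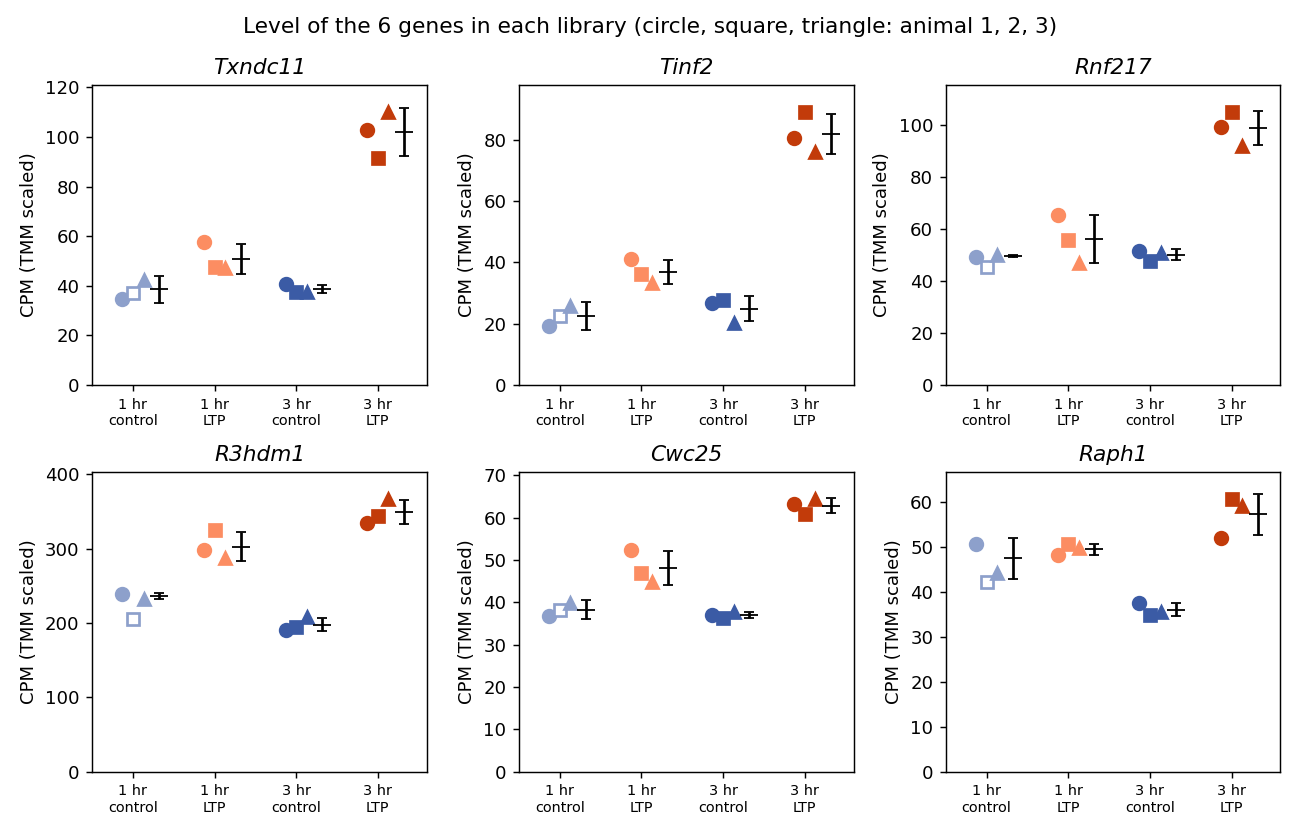
Level of each of the 6 genes in CPM (TMM scaled, linear axes from 0) in the 12 libraries, 1 panel per gene, with circle, square and triangle for animals 1, 2 and 3. Crossed bars give mean ± SD of the libraries in the fits, and the open square is the 1 hr control that was set aside. In each panel the 3 hr LTP libraries lie above the 3 hr controls, and in the Raph1 panel the 3 hr controls lie below every other library.

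Calls needed an edgeR adjusted p below 0.1 together with a more than 1.2-fold change. At 3 hr, 6 of 6 genes were called higher, beside 5.07% of the 17508 genes tested called higher and 1.53% called lower, a count that the choice of the genes fixes. At 1 hr, 2 of 6 were called higher, Tinf2 and R3hdm1, beside 0.778% of 17736 genes called higher and 0.0113% called lower. These counts too use values that chose the genes. In size the 1 hr effects ran from 0.08 (Raph1) to 0.73 (Tinf2) in log2 units. The 1 hr count rose to 4 with animal as a block, with Txndc11 and Cwc25 added, in a fit where animal 2 has no control. It was 2 with the block and the set-aside control, where the 3 pairs are complete, and 3 with the set-aside control and no block, with Txndc11 added. Without 1 hr control replicate 1 or replicate 3, or without LTP replicate 1, R3hdm1 was not called, and without control replicate 1 Tinf2 was not called either. Every 3 hr LTP library lay above every 3 hr control for 6 of 6 genes and for 12.4% of all genes tested, and at 1 hr, over the 6 libraries, for 4 of 6 (not Rnf217 and Raph1) and for 6.46% of all.

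In the main fits, each of the 6 had a 1 hr effect less than 50% of that at 3 hr (log2 scale). The size of the 1 hr effect was loose. Leaving out 1 library in turn gave 0.27 to 0.57 for Txndc11 and 0.53 to 0.95 for Tinf2, lowest without 1 hr control replicate 1 and highest without replicate 3. It gave 0.06 (without 1 hr LTP replicate 1) to 0.30 (without LTP replicate 3) for Rnf217 and -0.02 (without 1 hr control replicate 3) to 0.17 (without control replicate 1) for Raph1. R3hdm1 (0.32 to 0.42) and Cwc25 (0.27 to 0.40) moved less. The highest of these values passed 50% of the main 3 hr effect for Tinf2 and Cwc25. For R3hdm1 a value of 0.44, in another setting, did so. A 1 hr effect less than 50% of that at 3 hr was common among rising genes. Of the 867 genes called higher at 3 hr and tested at both times, 781 were not called at 1 hr, and 607 (70%) had an effect at 1 hr less than 50% as large as that at 3 hr. Over these genes the median log2 fold change was 0.16 at 1 hr and 0.51 at 3 hr. By their effects at 3 hr, the 6 genes ranked from 22 (Tinf2) through 46 (Txndc11), 224 (Rnf217), 366 (R3hdm1) and 432 (Cwc25) to 596 (Raph1) of all genes tested.

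From 1 hr to 3 hr the LTP effect grew by 1.02 for Tinf2 (SE 0.188), 1.01 for Txndc11 (SE 0.148), 0.83 for Rnf217 (SE 0.142), 0.62 for Raph1 (SE 0.113), 0.47 for R3hdm1 (SE 0.0996) and 0.45 for Cwc25 (SE 0.105), in log2 units. It was called larger at 3 hr for 2 of 6 genes, Txndc11 and Rnf217, beside 0.0269% of the 18584 genes tested, and nothing is read from that count because it combines the contrasts that chose the genes. With animal as a block it was called for 1 of 6, R3hdm1, and with DESeq2 for 6 of 6. Leaving out 1 library gave 0 to 4 of 6.

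The change within controls and within LTP slices uses the libraries that chose the genes, and a choice for a large 3 hr and a small 1 hr effect favours low 3 hr controls and high 1 hr controls. The values are a description. Controls of Txndc11, Tinf2 and Rnf217 differed little between 1 hr and 3 hr, with log2 changes of -0.04 (SE 0.112), 0.11 (SE 0.143) and -0.03 (SE 0.107), while the LTP slices changed by 0.97 (SE 0.0992), 1.13 (SE 0.125) and 0.79 (SE 0.0951). For Raph1 the controls were lower at 3 hr by -0.44 (SE 0.0838), and the LTP slices differed by 0.19 (SE 0.075). R3hdm1 had a change of -0.29 in the controls (SE 0.0741) and 0.17 in the LTP slices (SE 0.0665). Cwc25 had -0.09 in the controls (SE 0.0788) and 0.36 in the LTP slices (SE 0.0699). With the set-aside 1 hr control included, an alternative chosen after seeing the data, the control change was -0.35 for Raph1 (SE 0.0821) and -0.20 for R3hdm1 (SE 0.075). Without 1 hr control replicate 1 it was -0.30 for Raph1 (SE 0.102) and -0.24 for R3hdm1 (SE 0.0993). Without either 1 hr control in turn it ranged from -0.14 to 0.15 for Txndc11 and from -0.05 to 0.37 for Tinf2, wider than for Rnf217, where both values were near 0. Among the 867 genes with a called rise at 3 hr, 166 (19.1%) also had controls called lower at 3 hr than at 1 hr, near the 16.8% of all 18584 genes.

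**Figure D2:**
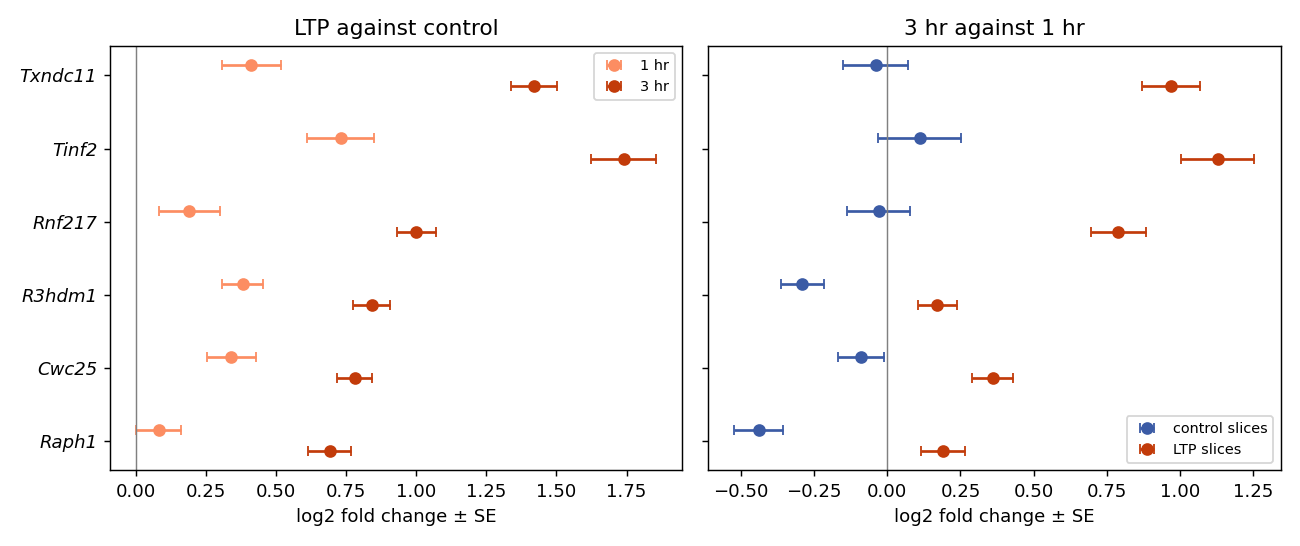
Log2 fold changes of the 6 genes with bars of ± 1 SE. The left panel shows LTP against control at 1 hr (light) and 3 hr (dark), and the right panel shows 3 hr against 1 hr within control slices (blue) and LTP slices (red). On the right, Txndc11, Tinf2 and Rnf217 have controls near 0 and LTP slices at 0.79 to 1.13, whereas Raph1 and R3hdm1 have controls at -0.44 and -0.29 and LTP slices at 0.19 and 0.17.

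The level at 3 hr against that at 1 hr, averaged over LTP and control slices, contains the 3 hr LTP libraries that chose the genes, and a gene that is higher in late LTP slices alone is also higher in this mean. It is given as a description, without p-values. The log2 fold change was 0.62 for Tinf2 (SE 0.0952), 0.47 for Txndc11 (SE 0.0751) and 0.38 for Rnf217 (SE 0.0718). It was 0.13 for Cwc25 (SE 0.0528), -0.06 for R3hdm1 (SE 0.0499) and -0.13 for Raph1 (SE 0.0564). The first 3 genes were called higher and 0 of 6 lower, beside 20.3% and 19.4% of the 18584 genes tested, and nothing is read from that count. The fit with all 12 libraries, where the groups are balanced, and the other 20 alternatives gave the same 3 of 6. Time points came from animals that the labels number alike without saying whether they differ, and time and animal cannot be told apart. Marker genes moved with time as well. In the same comparison, of 38 cell type markers 7 were called higher and 8 lower, beside the shares of all genes just given. Neuronal markers went both ways, since the excitatory marker Neurod6 had a log2 fold change of -1.01 (SE 0.0815). The lists with clear shifts were these. Summed CPM of 5 microglial markers was 234 to 261 in the 1 hr controls and 173 to 201 in the 3 hr controls (240 to 257 and 161 to 187 in LTP), that of 5 oligodendrocyte markers was 4220 to 5150 and 5820 to 7190 (4980 to 5980 and 5800 to 7080), and that of 4 CA1 and CA3 pyramidal markers was 300 to 359 and 398 to 456 (271 to 369 and 393 to 463). The part of these shifts in the result was not tested.

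Within time points, of 38 markers of 8 cell types, 1 was called higher in LTP at 3 hr and 0 were called lower. At 1 hr 0 were called. Over all genes tested, 5.07% were called higher and 1.53% lower at 3 hr, and 0.778% and 0.0113% at 1 hr. So few markers cannot be set apart from these shares. The marker called was the NMDA receptor subunit gene Grin2b, with a log2 fold change of 0.64 (SE 0.0835, edgeR adjusted p = 0.00633). Below the threshold, at 1 hr the 5 endothelial and mural markers were each lower in LTP, with a median log2 fold change of -0.24 (range -0.46 to -0.07) and sums of 79.2 to 85.4 CPM against 95.1 to 102 CPM in the controls. The 5 oligodendrocyte markers were each higher (0.17 to 0.28), with sums of 4980 to 5980 against 4220 to 5150 CPM. The part of these shifts in the 1 hr effects of the 6 genes was not tested. At 3 hr the ranges of both lists spanned 0. No marker was at 0 in any library. Excitatory markers were abundant (sums of 3720 to 5450 CPM over all libraries), and the dentate granule markers Prox1, C1ql2, Dsp and Trpc6 were still found (146 to 265 CPM in sum) although the dentate gyrus had been trimmed.

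Each animal gave its own ratio of LTP to control. At 3 hr the log2 ratios in animals 1, 2 and 3 were 1.34, 1.27 and 1.55 for Txndc11, 1.59, 1.68 and 1.89 for Tinf2 and 0.95, 1.14 and 0.85 for Rnf217. They were 0.81, 0.82 and 0.82 for R3hdm1, 0.77, 0.75 and 0.77 for Cwc25 and 0.47, 0.79 and 0.73 for Raph1. The ratios of R3hdm1 and Cwc25 were thus the same to within 0.02 in the 3 animals. At 1 hr they were more scattered, at 0.73, 0.36 and 0.15 for Txndc11, 1.09, 0.69 and 0.37 for Tinf2, 0.41, 0.29 and -0.09 for Rnf217, 0.32, 0.66 and 0.30 for R3hdm1, 0.51, 0.30 and 0.17 for Cwc25 and -0.07, 0.26 and 0.17 for Raph1. Txndc11, Tinf2, Rnf217 and Cwc25 had their highest 1 hr ratio in animal 1 and their lowest in animal 3. Animal 2 at 1 hr is the animal whose control was set aside.

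**Figure D3:**
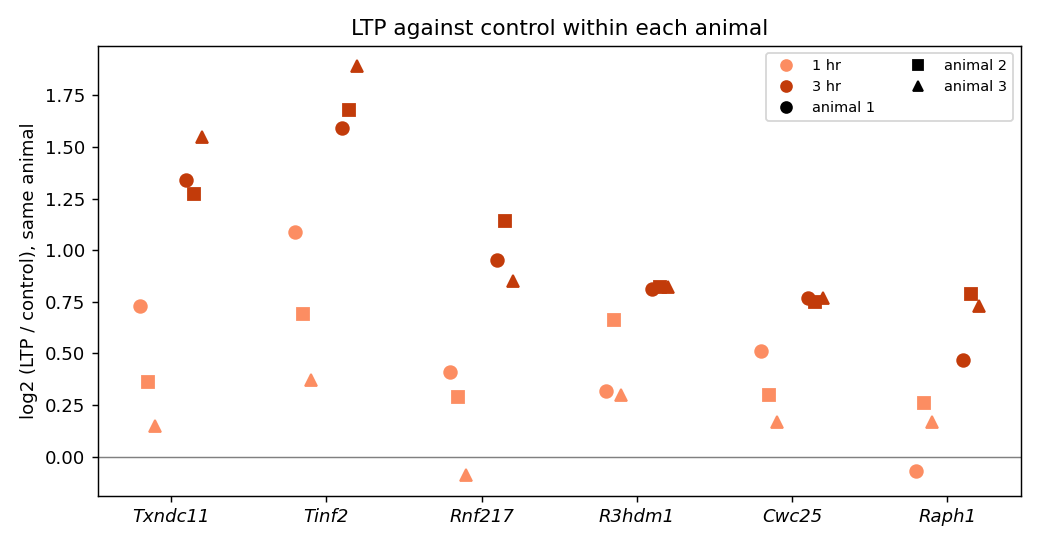
Log2 ratio of LTP to control CPM (pseudocount of 0.1 CPM) within each animal, for the 6 genes, at 1 hr (light) and 3 hr (dark), with circle, square and triangle for animals 1, 2 and 3. The dark points of R3hdm1 and Cwc25 coincide to within 0.02, and the light points are more spread. The effects plotted are those that chose the genes.

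Levels of different genes were compared per kilobase of exon. In the 3 hr controls the order was Cwc25 (7.32 CPM per kb), R3hdm1 (6.29), Tinf2 (5.05), Rnf217 (4.54), Txndc11 (4.37) and Raph1 (1.76). Over libraries, Tinf2, Rnf217 and Txndc11 overlapped in this order, and the others did not overlap with their neighbours. In the 3 hr LTP slices Tinf2 led (16.6 CPM per kb), followed by Cwc25 (12.4), Txndc11 (11.5), R3hdm1 (11.1), Rnf217 (8.98) and Raph1 (2.79). Txndc11 overlapped there with Cwc25 and with R3hdm1, which did not overlap with each other. The exon lengths join the exons of all annotated transcripts. The study's expression analysis used coding-region reads alone, and whether the deposited counts hold other reads is not stated. The order between genes is therefore uncertain. In it, the telomere gene was in the middle in the 3 hr controls and at the top in the 3 hr LTP slices.

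Over the 12 libraries, which share the group differences, Pearson's r between pairs of the 6 genes on the log2 CPM scale ran from 0.714 (Rnf217 and Raph1) to 0.975 (Txndc11 and Cwc25), with a median of 0.911 over 15 pairs. After the group means were taken away, r ran from -0.366 to 0.876, with a median of 0.237, and Txndc11 and Cwc25 were again the closest pair. Raph1 had its highest r with R3hdm1 (0.911), the other gene with lower 3 hr controls. Among 14183 genes, those nearest in pattern to Txndc11 were Sipa1l1 (r = 0.976), Dxo (0.975) and Cwc25 (0.975). Those nearest to Tinf2 were Trmt61b (0.976), which is annotated as antisense, Txndc11 (0.974) and Trh (0.973), which encodes thyrotropin-releasing hormone. Those nearest to Rnf217 were the processed pseudogene Gm7278 (0.975), Polr2a (0.97), which encodes the largest subunit of RNA polymerase II, and Txndc11 (0.959). The genes nearest to R3hdm1 were C230004F18Rik (0.967), 3110039I08Rik (0.959) and Zfc3h1 (0.958). Those nearest to Cwc25 were Txndc11 (0.975), Gm16386 (0.963) and Ptbp1 (0.962), a splicing repressor, and those nearest to Raph1 were Rasgef1b (0.952), Arpp21 (0.936) and Med14 (0.934). Txndc11 was thus among the nearest 3 of Tinf2, Rnf217 and Cwc25. Rasgef1b shared the course of Raph1, with LTP effects of 0.08 (1 hr) and 0.71 (3 hr) in log2 units and a control change of -0.38. Pseudogenes share reads with their parent genes, and the value of Gm7278 is uncertain for that reason. Of the exonic bases of Trmt61b 13.9% overlap other genes, and of those of Ptbp1 20.7%, so these values are uncertain too.

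The genes beside the 6 on the chromosome were read in the same fits. Of the 12 nearest tested protein-coding neighbours, 1 was called higher at 3 hr and 1 lower, and 0 were called at 1 hr by edgeR, beside 5.07% higher and 1.53% lower over all genes at 3 hr. So few neighbours cannot be set apart from these shares. Abi2, 1134 bases from Raph1 on the opposite strand, had a log2 fold change of 0.06 at 3 hr (SE 0.0543, edgeR adjusted p = 0.544). Zranb3, 254 bases from R3hdm1 on the opposite strand, gave 0.09 (SE 0.133, edgeR adjusted p = 0.761). Pip4k2b, 777 bases from Cwc25, gave -0.11 (SE 0.059, edgeR adjusted p = 0.336). On the other side of Cwc25, 1700001P01Rik gave 1.18 (SE 0.296, edgeR adjusted p = 0.0663), a call lost without any 1 of 5 of the 6 libraries and with DESeq2. Tpd52l1, 47235 bases from Rnf217, gave -0.32 (SE 0.0733, edgeR adjusted p = 0.0514), lost without 4 of the 6.

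R3hdm1 hosts the hairpin of Mir128-1 (chr1:128202361-128202430, plus strand), which was intronic in 2 of the 2 R3hdm1 transcripts that span it. Its mature miRNAs are shown because miR-128-3p, abundant in brain, is made from this hairpin and from that of Mir128-2 on chromosome 9, with the seed (bases 2 to 8) in capitals, from RefSeq.
mmu-miR-128-3p (Mir128-1 and Mir128-2): uCACAGUGaaccggucucuuu
mmu-miR-128-1-5p (Mir128-1): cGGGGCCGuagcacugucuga
mmu-miR-128-2-5p (Mir128-2): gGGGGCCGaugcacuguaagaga
The 5p arms share the seed GGGGCCG, and the 3p arms are identical.

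Counts over the Mir128-1 hairpin were low, and counts of long RNA do not measure the mature miRNA. The hairpin held 5, 30 and 13 counts in the 1 hr controls, 26, 22 and 20 in the 1 hr LTP slices, 25, 36 and 33 in the 3 hr controls and 39, 50 and 39 in the 3 hr LTP slices. At 3 hr LTP lay above control without overlap, but the log2 fold change of 0.63 was not called (SE 0.214, edgeR adjusted p = 0.146). At 1 hr it was 1.34 (SE 0.49, edgeR adjusted p = 0.542), and the set-aside control, at 0.623 CPM, lay within the Mir128-1 range of the 1 hr LTP libraries (0.468 to 0.63 CPM). The mean over LTP and control was higher at 3 hr by 1.17 (SE 0.23, edgeR adjusted p = 0.000857), and by 0.84 with all 12 libraries (SE 0.257, edgeR adjusted p = 0.0138), and its host R3hdm1 gave -0.06 and -0.003 in these fits.

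Whether partners of each gene moved too was read from 6 lists of genes with the same or a neighbouring role, 102 genes of which 97 were tested. At 3 hr 7 were called higher and 0 lower, and at 1 hr 0 were called either way by edgeR, against the shares of all genes given above. The median log2 fold change of each list at 3 hr lay between -0.07 and 0.07, against 0 over all genes.

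Of 13 shelterin and telomere genes beside Tinf2, 0 were called at 3 hr, with log2 fold changes of -0.16 to 0.47. The range at 1 hr was -0.15 to 0.22. Of 26 spliceosome factors beside Cwc25, 0 were called, within -0.18 to 0.21 at 3 hr. Averaged over LTP and control, 9 of 26 spliceosome factors were called lower at 3 hr than at 1 hr, 17 were not called and 0 were higher, beside 19.4% and 20.3% of all genes, with a median of -0.17. The 3 lowest of the list were picked after their values were seen. Cwc15 was lower by 0.75 on the log2 scale (SE 0.0629, edgeR adjusted p = 1.35e-06). Cwc27 was lower by 0.56 (SE 0.06, edgeR adjusted p = 7.4e-06) and the splice site selection factor Slu7 by 0.52 (SE 0.0496, edgeR adjusted p = 3.11e-06). This fit has no animal term, and time and animal cannot be told apart. The 3 calls were kept with the animal as the unit. Cwc25 itself gave 0.13 in that comparison.

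The Txndc11 list holds genes of ER-associated degradation and disulfide formation and DUOX oxidase genes. No DUOX gene was among the 21 genes tested. Of these 21, 1 was called higher at 3 hr, with 0.43 (SE 0.0632, edgeR adjusted p = 0.0114). It was Man1b1, the ER mannosidase that marks glycoproteins for degradation. The list ran from -0.19 to 0.43. Of 14 genes in the Rnf217 list, which holds RBR ligases and the iron exporter gene Slc40a1, 3 were called higher. Among them Arih1 rose by 0.32 (SE 0.0629, edgeR adjusted p = 0.0303), a call lost without each of 4 of the 6 libraries in turn, and Rnf19a rose by 0.29 (SE 0.0616, edgeR adjusted p = 0.0408), a call lost without each of 5.

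Of 7 tested genes in the R3hdm1 list, which also holds Mir128-1, 1 was called higher at 3 hr, the paralogue R3hdm2, with 0.60 (SE 0.092, edgeR adjusted p = 0.0126) against 0.19 at 1 hr (SE 0.0857, edgeR adjusted p = 0.738). Of 16 Ena/VASP and WAVE regulators of actin beside Raph1, 2 rose. Wasf1, the neuronal WAVE subunit, rose by 0.54 (SE 0.0912, edgeR adjusted p = 0.0184), a call lost without 3 hr control replicate 2. Enah, the Ena/VASP protein Mena, rose by 0.37 (SE 0.0867, edgeR adjusted p = 0.055), a call lost without 4 of the 6 libraries. Man1b1 and R3hdm2 were called in each of the 14 alternatives at 3 hr.

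**Figure D4:**
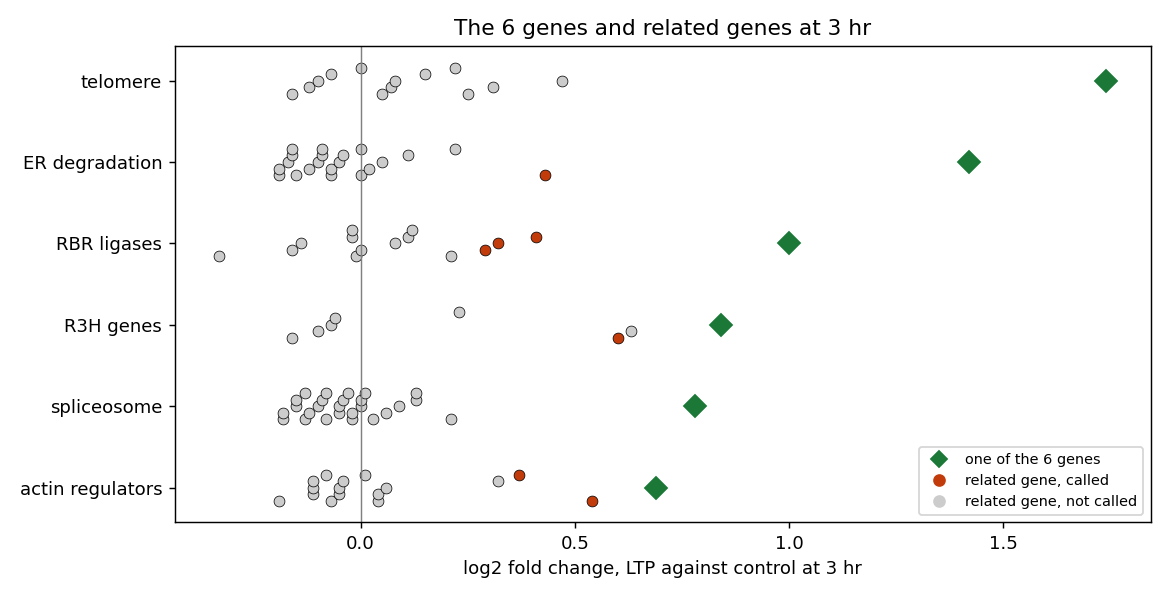
Log2 fold change of LTP against control at 3 hr for the 6 genes (green diamonds) and for the tested genes of the 6 related lists (circles, red where called, vertical offsets for legibility only). The 6 genes were chosen for this effect, so the place of the diamonds is no result. The telomere and spliceosome rows hold no red circle.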

How the data were processed

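The authors deposited raw counts per gene, not normalized, in 1 table per time point (12 libraries, 0 columns unused). Per the methods, rRNA-depleted libraries were sequenced from both ends and STAR placed the reads on GRCm38/mm10. Symbols, positions and exon lengths came from GENCODE release M21, which matched 40217 of 41091 gene IDs. Tests used edgeR 4.0.16 (R 4.3.3): filterByExpr, TMM scaling, glmQLFit and glmQLFTest, with Benjamini-Hochberg adjustment over all genes tested. The time points were fitted separately (5 libraries at 1 hr, 6 at 3 hr), and the difference and the comparisons across time in 1 model of the 4 groups (11 libraries). Calls needed adjusted p below 0.1 and more than 1.2-fold change, and for the difference no fold minimum was set. The procedure was tested on simulated data. CPM are TMM scaled, ratios within animals used a pseudocount of 0.1 CPM, and a floor of 3 counts equals 0.0585 to 0.0786 CPM. No replicates were near identical (chi-square per degree of freedom 9.49 to 85.6).

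The members and gene lists were chosen with earlier results of these data known. The text names the 6 genes, for each the 3 genes with the highest r over the 12 libraries (mean of at least 1 CPM), their nearest tested protein-coding neighbours, members of the related lists called at 3 hr (up to 4 per list), Mir128-1 and Arc. The values of 1 gene of the related lists are not reported here. Cwc15, Cwc27 and Slu7 were named after their values were seen, as the 3 lowest of the spliceosome list. Whether the slices came from separate cultures beyond the animal is not stated. By the titles and the methods, LTP and control libraries with 1 number at a time point come from 1 animal, so the number pairs them. The correlation of their deviations from group means was 0.003, -0.276 and 0.096 at 1 hr and 0.1, 0.005 and 0.323 at 3 hr. Alternatives were DESeq2 1.42.0, voom of limma 3.58.1, other scalings and filters, the animal as a block or random effect, counts summed per animal, the set-aside control included, and each library left out.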

Additional observations from a re-analysis of the deposited data

Results flagged for a closer look

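The difference between the LTP effects at 3 hr and 1 hr (edgeR, 11 libraries) stood out for 3 genes. For Txndc11 it was 1.01 on the log2 scale (SE 0.148) and for Rnf217 0.83 (SE 0.142), but both were chosen for such a course, so this is a description and no test. The call was lost for Txndc11 with the replicate block and without 5 of the 11 libraries, and for Rnf217 with 5 other settings, the block among them, and without 7 of the 11. Arc was not chosen on this difference, but the slices were selected for a rise of Arc. Its LTP effect was smaller at 3 hr, with -0.68 (SE 0.102, edgeR adjusted p = 0.031). For Arc this was -0.44 with the set-aside 1 hr control included (SE 0.186, edgeR adjusted p = 0.673), and the call was lost without each of 5 of the 11 libraries: 3 hr control replicates 2 and 3, 1 hr control replicate 3, 3 hr LTP replicate 1 and 1 hr LTP replicate 1.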

How the results depend on the processing

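The number of the 6 genes called higher at 3 hr stayed at 6 in the 14 alternatives run, and that called higher in the mean over LTP and control stayed at 3 in 21. At 1 hr it was 2, and 4 with DESeq2, with a filter of at least 1 count, or with the replicate block, and 2 with the block once the set-aside control completed the pairs; leaving out 1 library gave 0 to 4. The difference between the time points was called for 2, for 6 with DESeq2, for 5 with at least 1 count, and for 1 with the size factors of DESeq2, total counts, upper quartile scaling, at least 10 counts in every library, or the replicate block; leaving out 1 library gave 0 to 4. The cause of these changes was not tested. No direction of a called value was reversed. Over all genes, leaving out 1 library gave 210 to 1656 higher calls at 3 hr (888) and 18 to 514 lower (267, and 426 with the replicate block), and 69 to 328 higher calls at 1 hr (138, and 324 with at least 1 count) and 0 to 16 lower (2, 23 with at least 1 count, 8 with the block). For the difference it gave 0 to 54 larger at 3 hr (5, 52 with DESeq2, 57 with at least 1 count) and 1 to 17 smaller (6, 28 and 45, and 3 with the set-aside control included). For the mean over LTP and control, fits with the animal as the unit were added after seeing the data. The number of the 6 genes called was 3 with the replicate block as counts summed per animal (3 animals a time point) and 3 with the block as a random effect (correlation within an animal 0.243, limma-voom). Mir128-1 gave 0.81 (edgeR adjusted p = 0.0132) and 1.19 (limma adjusted p = 0.00311), and Cwc15, Cwc27 and Slu7 kept their calls in both. With a pseudocount of 1 CPM the median 3 hr ratio of Cwc25 was 0.755 against 0.768. In an alternative chosen after seeing the data, the change of the R3hdm1 controls from 1 hr to 3 hr (-0.29) was under the fold minimum with the set-aside control included (-0.20) and without 1 hr control replicate 1 (-0.24). Genes below 3 counts were not detectable at this depth, which no member neared.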
